A study of Mus musculus with 6 samples.

Results

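The genes described here are 33 genes of protein folding in the endoplasmic reticulum (ER) and of the unfolded protein response, chosen by name and looked up by Ensembl identifier in a count table of 47729 genes. All 33 stood in the table, and 32 passed the filter on low counts that left 15780 genes. The exception was Chac1. RNA was sequenced from splenic CD4 T cells of mice, with 3 groups and 2 libraries in each. WT libraries were from wild type mice; the sort gate was CD3+CD4+CD25-CD45RBhi, and the cells are described as mature T cells. ON and OFF libraries were from RBPJind mice, with the gate CD3+CD4+CD25-CD45RBint, and the cells are described as immature naive cells, and as recent thymic emigrants (RTE). Notch receptors control transcription through the DNA-binding factor RBPJ, which doxycycline (Dox) switches on in the RBPJind strain. ON mice drank Dox for 4 weeks. OFF mice drank it for 3 weeks and then went without for 1 week of peripheral maturation. The treatment label of every library is Dox, and no duration is given for WT. No source used here gives the cell types in which RBPJ is induced, the age of the mice or whether 2 libraries of 1 group are different animals. The p-values therefore cover the spread among these 6 libraries, which may be technical. OFF differed from ON in Dox as well as in Notch responsiveness, and both differed from WT in genotype and sort gate, which cannot be told apart.

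Proteins bound for the cell surface or for secretion enter the ER through the Sec61 channel, where Hspa5 (BiP) and other chaperones hold them while disulfide isomerases join their cysteines and the lectins calnexin and calreticulin hold their sugar-bearing forms. When unfolded proteins build up, 3 membrane sensors respond. IRE1 (gene Ern1) splices Xbp1 mRNA into the form that encodes an active factor, PERK (gene Eif2ak3) phosphorylates eIF2alpha and thereby favours translation of Atf4, and ATF6 is cut in the Golgi to release a transcription factor. XBP1 and ATF6 are known to raise chaperone and degradation genes, and ATF4 raises Ddit3 and Trib3. In lymphocytes the response is best known from plasma cells, and chaperone genes are also known to rise in activated T cells. A count per gene does not measure the splicing of Xbp1, the phosphorylation of eIF2alpha or the cleavage of ATF6.

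The promoters of several of these genes carry the ER stress element (ERSE), which is bound by NF-Y together with ATF6 or XBP1, and they are shown because the chaperone genes below are described together. RefSeq promoter windows (GRCm38.p6) of 300 bases, from 250 before to 50 after the transcription start, matched 29 of the 33 genes by symbol; Atf6, Derl1, Hyou1 and Manf had no match. On both strands, 8 of the 29 (27.6%) held the exact ERSE (CCAAT, any 9 bases, then CCACG), against 0.137% of 27025 genes with a window (0.119% of all windows). The shorter ERSE-II (ATTGG, any 1 base, then CCACG) stood in Herpud1 and Dnajb11, 2 of 29 (6.9%), against 0.0444% of all genes. Only exact matches were counted, so 10 genes held an ERSE or ERSE-II and 19 held neither in this form. The C/EBP-ATF element, TGATGNAAN, stood in Asns, Chac1, Herpud1 and Trib3 (13.8% of 29) against 4.5% of all genes. The core of a further element bound by XBP1, TGACGTGG, stood in 0.714% of all genes and in none of the 29. In Hsp90b1 the ERSE occurred in both orientations, from -212 to -194 and from -107 to -89. In Dnajb11 and Trib3 the match lay downstream of the start. A match says only that these letters are present. The 33 genes were chosen by name as genes of this response, so their higher shares are not a finding of these data. In the stretches below, read 5′ to 3′ on the gene's strand, capitals mark the fixed letters of the matches.

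Hspa5 (chr2:34771920-34772060, plus strand): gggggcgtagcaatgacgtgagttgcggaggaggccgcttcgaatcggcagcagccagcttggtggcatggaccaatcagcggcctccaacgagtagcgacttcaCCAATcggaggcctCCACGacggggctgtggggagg
Hsp90b1 (chr10:86705524-86705669, minus strand): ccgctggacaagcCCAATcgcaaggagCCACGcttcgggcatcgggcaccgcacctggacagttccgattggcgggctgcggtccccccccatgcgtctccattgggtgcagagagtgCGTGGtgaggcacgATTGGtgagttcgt
Calr (chr8:84847051-84847111, minus strand): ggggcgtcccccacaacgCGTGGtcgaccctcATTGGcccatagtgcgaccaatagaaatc
Canx (chr11:50325778-50325838, minus strand): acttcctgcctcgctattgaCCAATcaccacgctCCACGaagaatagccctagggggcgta
Pdia6 (chr12:17266469-17266529, plus strand): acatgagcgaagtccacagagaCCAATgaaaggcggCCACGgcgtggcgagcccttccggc
Creld2 (chr15:88819501-88819556, plus strand): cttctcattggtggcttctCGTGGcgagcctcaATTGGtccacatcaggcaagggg
Dnajc3 (chr14:118937807-118937867, plus strand): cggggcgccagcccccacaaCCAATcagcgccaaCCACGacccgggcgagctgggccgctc
Syvn1 (chr19:6046511-6046571, plus strand): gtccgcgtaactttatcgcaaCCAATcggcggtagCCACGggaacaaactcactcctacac
Herpud1 (chr8:94386299-94386404, plus strand): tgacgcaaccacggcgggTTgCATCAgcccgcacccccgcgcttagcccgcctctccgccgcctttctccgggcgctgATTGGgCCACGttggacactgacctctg
Chac1 (chr2:119351027-119351077, plus strand): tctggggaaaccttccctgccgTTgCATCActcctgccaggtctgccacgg

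Capitals in Hspa5, Hsp90b1, Calr, Canx, Pdia6, Creld2, Dnajc3 and Syvn1 mark the ERSE, in Herpud1 the C/EBP-ATF element and then the ERSE-II, and in Chac1 the C/EBP-ATF element. The complement of an element reads CGTGG first and ATTGG last, as in Calr and Creld2.

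**Figure D1:**
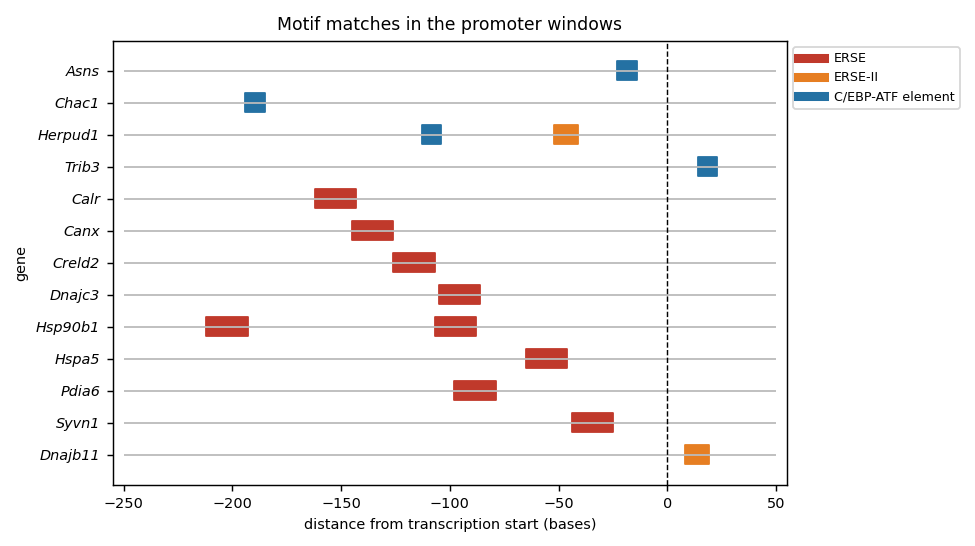
Matches of the ERSE, ERSE-II and C/EBP-ATF element in the promoter windows of the 13 genes with any match, plotted by distance from the transcription start in bases; grey lines are the 300-base windows and the dashed line is the start. ERSE matches all lie upstream of the start, between -212 and -26.

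Counts assigned to genes came to 17025551 to 19319183 per library, of which the 33 genes took 44257 to 74413. Genes with a count numbered 24210 to 33138 and did not overlap between groups. Levels are in CPM, the count per megacount of the library after TMM scaling. The 8 T cell genes were present in every group and were also higher in ON and OFF. They summed to 2726 and 2531 CPM for WT, 3057 and 3785 for ON, and 2998 and 3253 for OFF, with means 1.30 times the WT mean in ON and 1.19 times in OFF. Their median log2 fold changes against WT were 0.32 in ON and 0.25 in OFF, with 8 of 8 above 0 in each, and edgeR called 0 in ON (DESeq2 2, limma-voom 0; 5 were higher at an unadjusted p under 0.05) and 1 in OFF. Rbpj, the induced gene, was at 36.1 and 35.3 CPM in WT, at 98.2 and 79.6 in ON, and at 29.8 and 31.7 in OFF. Markers of dividing cells moved with the groups. Their 10 genes summed to 102 and 82.0 CPM in WT 1 and WT 2, to 1176 and 519 in ON 1 and ON 2, and to 531 and 895 in OFF 1 and OFF 2. By edgeR's quasi-likelihood test all 10 were called higher in ON than in WT, 8 in OFF against WT and 0 between OFF and ON. Of all genes 14.8%, 6.83% and 1.03% were called in these comparisons, which is the background for the marker counts that follow. The 8 B cell genes summed to 6.22 to 7.85 CPM in WT, 14.9 to 20.4 in ON and 27.5 to 44.4 in OFF, with 3 of 8 called in ON and 8 of 8 in OFF against WT. The 8 plasma cell genes in the table summed to 14.7 and 14.01 CPM in WT, 51.4 to 74.4 in ON and 40.8 to 54.5 in OFF, with 3 of 5 tested called in ON and 2 of 5 in OFF against WT. Of these, Irf4 and Prdm1, which T cells also express, made up most of the sum. Jchain had means of 0.117 (WT), 1.80 (ON) and 1.11 (OFF) CPM, Sdc1 stayed under 1, and Tnfrsf17 was at 0 in WT and ON. The 5 tested diverged, with log2 fold changes from -2.17 to 3.85 in ON against WT, where 1 lay below 0. They ran from 1.02 to 3.17 in OFF against WT and from -0.96 to 3.19 in OFF against ON. The 8 myeloid genes summed to 19.4 to 20.3, 52.0 to 56.3 and 45.2 to 61.3 CPM, and 5 and 3 of 8 were called in ON and OFF against WT. These genes diverged too, with 1 of 8 below 0 in each comparison with WT. Log2 fold changes ran from -0.998 to 2.80 in ON and from -3.96 to 2.41 in OFF against WT. The 6 CD8 T and NK genes summed to 23.4 to 31.5, 69.3 to 92.2 and 59.0 to 72.1 CPM, mostly Eomes. Cd8a had means of 0.849, 5.79 and 3.57. The list did not rise as a whole, since 3 of 6 lay below 0 in each comparison with WT. Median log2 fold changes were -0.17 in ON and 0.19 in OFF, with 2 of 6 called higher in each. Erythroid genes summed to at most 2.16 CPM in any library. The part of these cells in the results below was not tested, and in bulk RNA more RNA per cell and more cells of a type cannot be told apart.

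Levels of different genes are compared per kilobase of merged exons. Calr, which encodes calreticulin, was highest at 167 CPM per kilobase over all 6 libraries, ahead of the disulfide isomerase genes Pdia3 (84.5) and Pdia4 (69.1), Hspa5 (73.1), the Hsp90 paralog of the ER Hsp90b1 (57.7) and Canx (56.5). The order of Pdia4 and Pdia3 was not the same in all groups, since Pdia4 had 91.1 and Pdia3 90.3 in ON but 50.2 and 68.9 in WT. Among the transcription factors Atf4 stood at 45.5 CPM per kilobase, Ddit3 at 13.1 and Xbp1 at 9.82. Sensor genes were low, with Eif2ak3 at 7.94 and Ern1 and Atf6 at 2.18 and 2.17. At the foot of the order stood 3 targets of ATF4, while Ppp1r15a, grouped with them as a feedback gene, was at 39.7. Trib3, a pseudokinase gene, was at 1.26, and the asparagine synthetase gene Asns at 0.163 CPM per kilobase. Chac1, a glutathione-degrading enzyme gene, had 0 to 3 counts per library and was not tested.

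**Figure D2:**
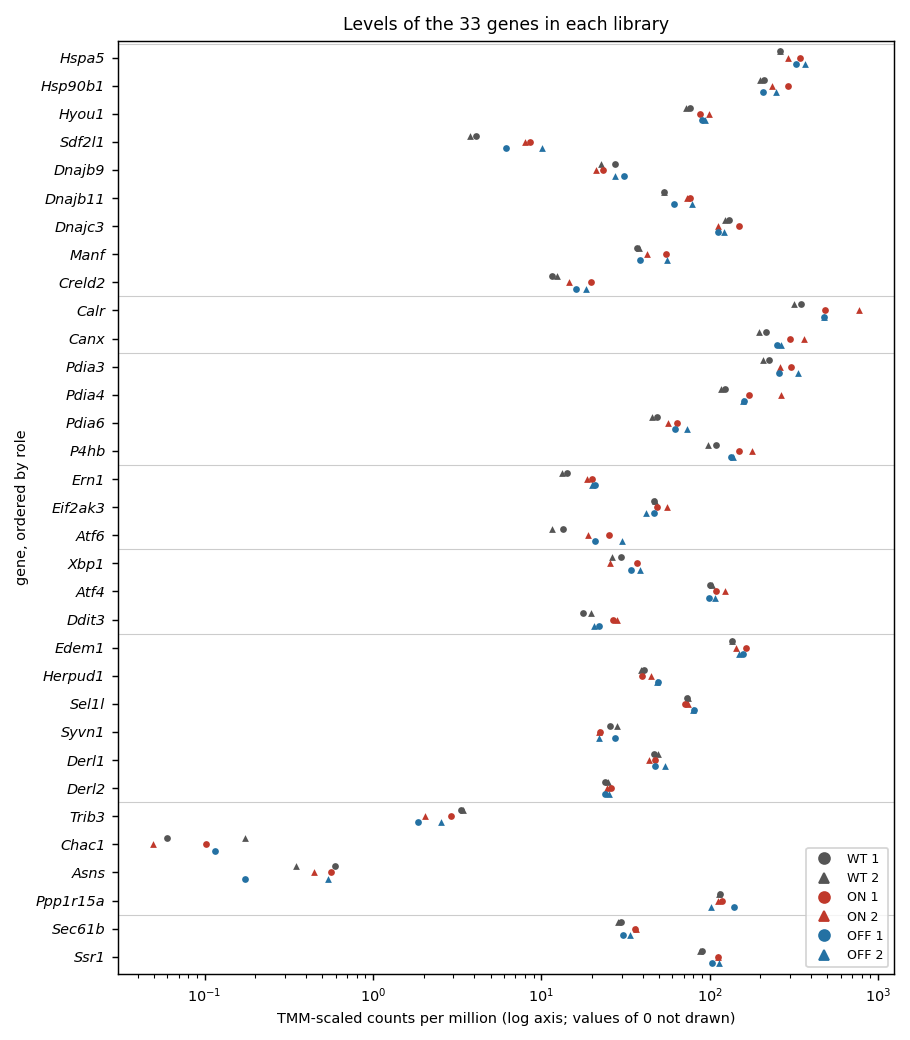
TMM-scaled CPM of each of the 33 genes in each library on a log axis, ordered by role with grey lines between roles; grey, red and blue are WT, ON and OFF, circles and triangles replicates 1 and 2. Chac1 and Asns lie below 1 CPM in every library, and Calr is the highest gene, at 318 to 772 CPM.

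ON cells were compared with WT cells to ask how immature Notch-responsive cells differ from mature ones. Both lectin genes, 2 of 4 isomerase genes, 2 of 9 lumenal chaperone genes, the sensor gene Atf6 and the factor gene Ddit3 were called higher in ON, by 1.41-fold to 2.12-fold, and 0 of 6 degradation genes were called. Of the 32 tested genes, 8 were called higher (adjusted p under 0.05 by edgeR's quasi-likelihood test with Benjamini-Hochberg adjustment over all genes) and 0 lower, where 14.8% of all genes were called, 9.68% higher and 5.16% lower. At an unadjusted p under 0.05, 17 were higher and 0 lower, against 30.5% of all genes (17.1% higher and 13.4% lower). DESeq2 and limma-voom called 8 and 7 higher and 0 lower. The median log2 fold change was 0.32, against -0.02 over all genes, and 26 of 32 were above 0, against 48.3% of all genes. The 2 libraries of ON lay above both of WT for 21 of the 32 genes and below for 2, Syvn1 and Trib3, where 59.9% of all genes did not overlap, 29.8% above and 30% below. Summed over the 33 genes, CPM came to 2696 and 2573 for WT, 3443 and 3688 for ON, and 3136 and 3363 for OFF, so that no library of ON or OFF reached down to WT. The mean was 1.35 times that of WT in ON and 1.23 times in OFF, beside 1.30 and 1.19 times for the T cell genes, and the median log2 fold change in ON was 0.32 for both lists. Whether the 33 genes moved apart from the T cell genes was not tested.

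The lectins rose together. Calr (chromosome 8, 84841850 to 84846934) was at 348 and 318 CPM in WT 1 and WT 2, 487 and 772 in ON 1 and ON 2, and 479 and 479.9 in OFF 1 and OFF 2. Both ON libraries stood above WT, but they stood far apart, and ON 1 lay next to OFF. The rise in ON was 1.89-fold (log2 fold change 0.92 ± 0.19, SE; adjusted p = 0.0133 by edgeR). It was 0.57 on the log2 scale without ON 2 (adjusted p = 0.0119) and 1.23 without ON 1. Canx (chromosome 11, 50293961 to 50325673), the membrane-bound calnexin, was at 216 and 195 CPM in WT, at 301 and 363 in ON, and at 250.1 and 266 in OFF. It rose 1.61-fold (0.69 ± 0.13; adjusted p = 0.00916) and, among the 33 genes, was the 1 also called at an adjusted p under 0.01. Its 3 groups did not overlap, with OFF between the others.

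Disulfide isomerase genes were higher in both ON libraries than in WT for 4 of 4, where 29.8% of all genes were, and 2 passed the test, where 9.68% of all genes were called higher. Pdia4 (chromosome 6, 47796141 to 47813430) was at 124 and 117 CPM in WT, at 171 and 266 in ON, and at 159 and 158 in OFF. It rose 1.81-fold (log2 fold change 0.86 ± 0.18; adjusted p = 0.0152 by edgeR), by 0.53 without ON 2 and 1.17 without ON 1. Like Calr, it was much higher in ON 2 than in ON 1. P4hb (chromosome 11, 120560298 to 120573253), which encodes protein disulfide isomerase itself, was at 109.8 and 97.9 CPM in WT, at 149.8 and 178 in ON, and at 133 and 138 in OFF, and rose 1.58-fold (adjusted p = 0.0103). Pdia3, the isomerase that works with the lectins, was at 226 and 206 CPM in WT, at 305 and 262 in ON, and at 257 and 334 in OFF (log2 fold change of ON 0.39 ± 0.15, adjusted p = 0.114). Pdia6 was at 48.4 and 45.5, 63.9 and 56.7, and 62.4 and 73.1 CPM (0.36 ± 0.13 in ON, adjusted p = 0.0987). Neither was called in ON.

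Among 9 soluble chaperones and cofactors of the ER lumen, 2 rose, where 9.68% of all genes were called higher, and 7 were higher in both ON libraries than in WT, where 29.8% of all genes were. Sdf2l1 (chromosome 16, 17130138 to 17132383), a partner of Hspa5, was at 4.07 and 3.78 CPM in WT, at 8.59 and 8.03 in ON, and at 6.18 and 10.04 in OFF. Its 2.12-fold rise was the largest log2 fold change of the 33 genes in ON (1.08 ± 0.28; adjusted p = 0.0299 by edgeR) and was not called without ON 1 (adjusted p = 0.0678). Dnajb11 (chromosome 16, 22857845 to 22879634), a co-chaperone of Hspa5, was at 53.4 and 53.3 CPM in WT, at 76.9 and 73.8 in ON, and at 61.0 and 78.1 in OFF. It rose 1.41-fold (adjusted p = 0.0396) and was not called without ON 1 (0.0747) or ON 2 (0.0578), without the filter on low counts or with upper quartile scaling. Hspa5 itself was at 262 and 261 CPM in WT, at 344 and 293 in ON, and at 326 and 368 in OFF. Its groups did not overlap with WT, but the change in ON was 0.29 ± 0.13 on the log2 scale (adjusted p = 0.160). Hsp90b1, Hyou1, Creld2 and Manf had log2 fold changes of 0.36, 0.33, 0.52 and 0.39 in ON and were not called. The exceptions were a pair of J-domain co-chaperone genes, Dnajb9 (-0.18 ± 0.15) and Dnajc3 (0.05 ± 0.15), in which ON and WT overlapped.

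**Figure D3:**
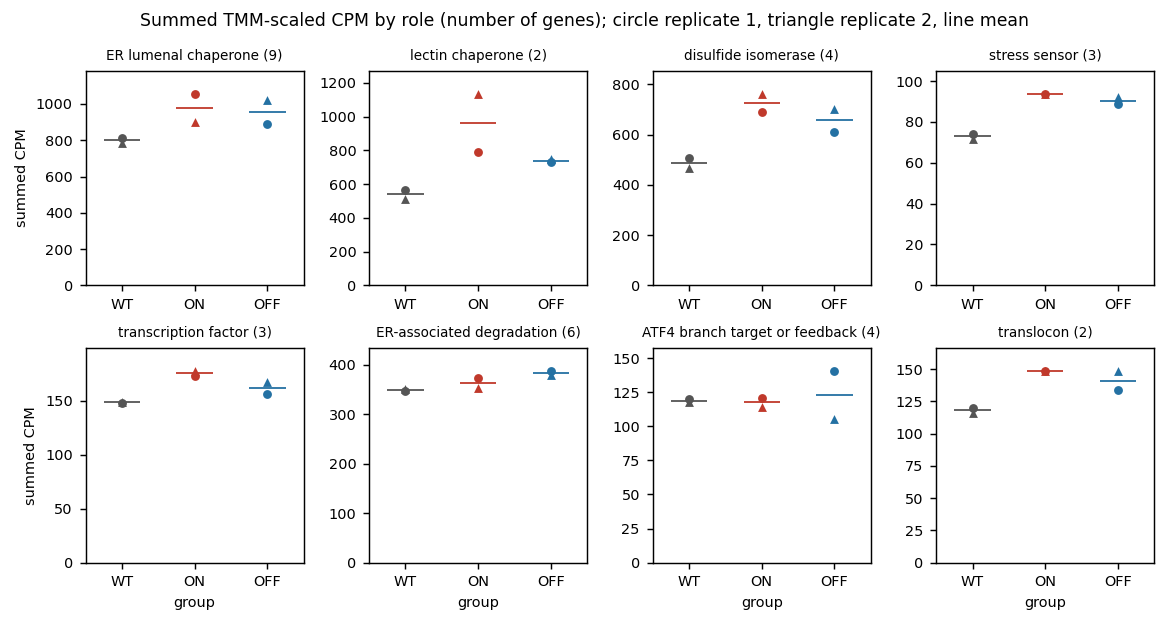
Summed TMM-scaled CPM of the genes of each role in each library (axes from 0; circle replicate 1, triangle replicate 2, line the mean of 2 libraries). The lectin sum runs from 514 in WT 2 to 1136 in ON 2, while the degradation genes span only 347 to 387.

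Of the 3 sensors, Atf6 (chromosome 1, 170704674 to 170867771) rose. It was at 13.5 and 11.6 CPM in WT, at 25.1 and 18.9 in ON, and at 20.97 and 30.0 in OFF, with every ON and OFF library above WT. The rise was 1.75-fold in ON (log2 fold change 0.81 ± 0.22; adjusted p = 0.0352 by edgeR) and was not called without ON 1 (0.62, adjusted p = 0.120) or with limma-voom (adjusted p = 0.0567). Ern1 was at 14.1 and 13.2 CPM in WT, at 20.0 and 18.8 in ON, and at 20.8 and 20.0 in OFF. Its libraries of ON and OFF lay close together and above WT, with log2 fold changes of 0.51 ± 0.15 in ON (adjusted p = 0.0509) and 0.58 ± 0.15 in OFF (adjusted p = 0.0512), neither of them called. Eif2ak3 was at 46.4 and 47.0, 48.6 and 56.1, and 46.9 and 42.1 CPM (0.16 ± 0.13 in ON, adjusted p = 0.426).

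Ddit3 (chromosome 10, 127290774 to 127296288), which encodes CHOP, was the called gene among the 3 transcription factors. It was at 17.6 and 19.7 CPM in WT, at 26.8 and 27.9996 in ON, and at 21.95 and 20.7 in OFF, and its 3 groups did not overlap. The rise in ON was 1.47-fold (log2 fold change 0.55 ± 0.14; adjusted p = 0.0299 by edgeR) and was not called without ON 2 (adjusted p = 0.0630) or without the filter on low counts. Its exons share 68 bases with those of Mars on the opposite strand, and strand use in counting is not given. Xbp1 was at 29.8 and 26.3 CPM in WT, at 37.2 and 25.5 in ON, and at 34.0 and 38.6 in OFF, so ON overlapped both other groups (0.16 ± 0.19 in ON, adjusted p = 0.603). Atf4 was at 100.5 and 103 CPM in WT, at 109 and 124 in ON, and at 99.7 and 107.9 in OFF (0.20 ± 0.12, adjusted p = 0.290).

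Degradation genes remove misfolded proteins through channels and ubiquitin ligases of the ER membrane. For these 6 genes edgeR, DESeq2 and limma-voom called 0 in ON against WT, with 0 at an unadjusted p under 0.05 by edgeR. Over all genes edgeR called 14.8%, and 30.5% had such a p, so 0 calls among so few genes is near that share. Log2 fold changes ran from -0.28 (Syvn1, the ligase) to 0.19 (Edem1). Edem1, the most abundant by CPM, was at 136 and 135.0 CPM in WT, at 165 and 144 in ON, and at 158 and 149 in OFF. Of the ATF4 targets and feedback genes tested (3), 0 were called by any of the 3 tools and 0 had an unadjusted p under 0.05. The same shares of all genes apply, and 0 calls of 3 is near them. Ppp1r15a, which restores translation by dephosphorylating eIF2alpha, was at 116 and 114 CPM in WT, at 118 and 112 in ON, and at 139 and 102 in OFF. Trib3 was at 3.35 and 3.43, 2.91 and 2.03, and 1.85 and 2.52 CPM, below WT in every ON and OFF library (-0.46 ± 0.32 in ON, adjusted p = 0.366), the opposite side from Ddit3. The translocon genes Sec61b and Ssr1 had log2 fold changes of 0.32 ± 0.13 and 0.34 ± 0.11 in ON, both with an unadjusted p under 0.05 and neither called (adjusted p = 0.126 and 0.0791 by edgeR; 0 by DESeq2 or limma-voom). Ssr1 was at 90.3 and 87.5 CPM in WT, at 113 and 112 in ON, and at 103 and 114 in OFF.

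All 8 calls of ON against WT were lost when either WT library was left out. The adjusted p of edgeR was then 0.0667 to 0.251 without WT 1 and 0.126 to 0.223 without WT 2. Over all genes calls fell from 2342 to 494 and 368 in those fits.

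**Figure D4:**
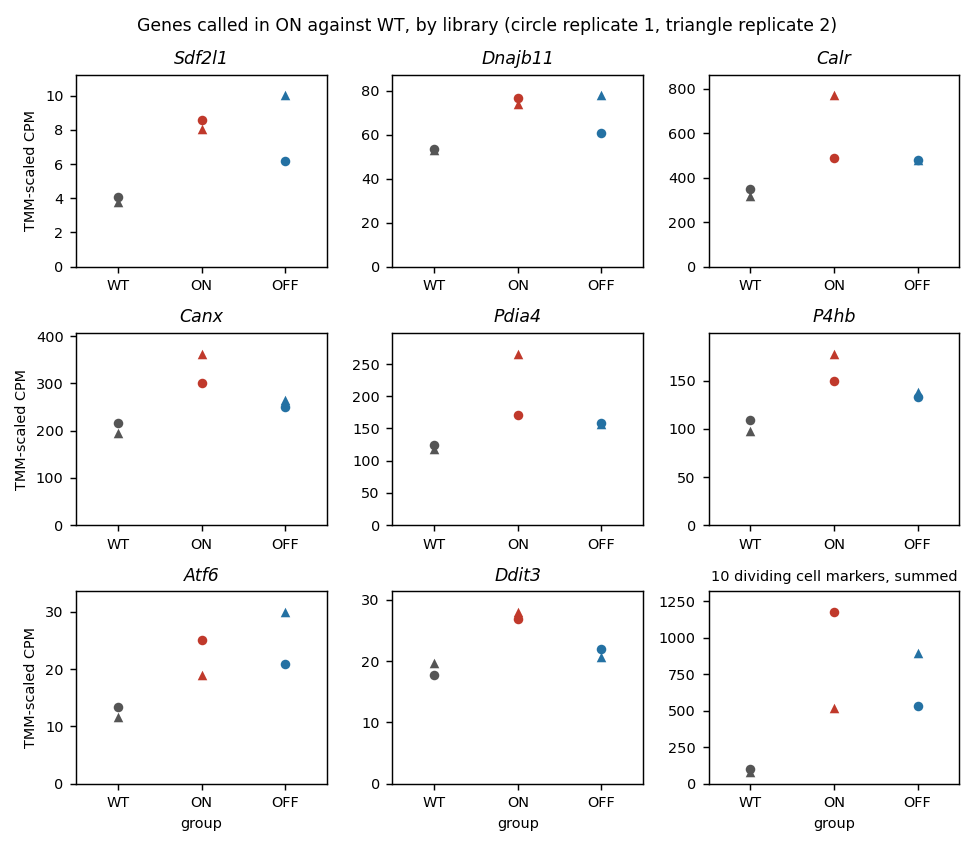
TMM-scaled CPM by library of the 8 genes called higher in ON than in WT, with the sum of 10 dividing cell markers in the last panel (axes from 0; circle replicate 1, triangle replicate 2). Calr, Canx, Pdia4, P4hb and Ddit3 are higher in ON 2 than in ON 1. Sdf2l1, Dnajb11 and Atf6 are higher in ON 1. The dividing cell sum is 1176 in ON 1 and 519 in ON 2.

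The 2 ON libraries ordered these genes differently. ON 2 exceeded ON 1 by 1.59 times for Calr, 1.56 for Pdia4, 1.21 for Canx and 1.19 for P4hb. ON 1 exceeded ON 2 by 1.46 times for Xbp1, 1.37 for Creld2, 1.34 for Dnajc3, 1.33 for Atf6 and 1.30 for Manf. In OFF, the genes of the first set differed by at most 1.06 times between libraries, and Atf6 and Manf were 1.43 and 1.44 times higher in OFF 2. The dividing cell sum was higher in ON 1 and in OFF 2, as were Atf6, Manf, Xbp1, Creld2 and Dnajc3. Hspa5, Hsp90b1, Sdf2l1, Dnajb11, Pdia3, Pdia6, Derl1, Derl2, Trib3, Asns and Ssr1 had the same order, some of them by little. The remaining genes, among them Calr, Canx, Pdia4 and P4hb, did not have this order in both groups. The part of dividing cells in these levels was not tested.

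OFF cells were compared with the same WT libraries, so the 2 comparisons with WT are not independent. Of the 32 tested genes, 2 were called higher by edgeR and 0 lower, where 6.83% of all genes were called, 4.7% higher and 2.14% lower. At an unadjusted p under 0.05, 14 were higher and 0 lower, against 22.1% of all genes (12.4% higher and 9.7% lower). DESeq2 and limma-voom called 3 and 0. The median log2 fold change was 0.29, against 0.01 over all genes, and 27 of 32 were above 0, against 51.1% of all genes. Both OFF libraries lay above WT for 22 genes and below for 2, Dnajc3 and Trib3, where 55.7% of all genes did not overlap, 29.8% above and 25.8% below. Atf6 rose 2.03-fold (1.02 ± 0.22; adjusted p = 0.0261). Its call was lost without WT 1 (adjusted p = 0.118), WT 2 (0.139) or OFF 2 (0.162) and with limma-voom (0.0533). Pdia6 (chromosome 12, 17266545 to 17284770) rose 1.44-fold (0.53 ± 0.13; adjusted p = 0.0452). It was not called without WT 1 (0.227), WT 2 (0.209) or OFF 2 (0.311), nor with RLE scaling (0.0556), upper quartile scaling (0.0744), a mean CPM of 1 or more (0.0824) or limma-voom (0.0654). Its exons share 50 bases with Atp6v1c2 on the opposite strand. Sdf2l1 (2.06-fold, adjusted p = 0.0574) and Hspa5 (1.33-fold, adjusted p = 0.0889) were not called, although both OFF libraries lay above WT. With ON 1 or ON 2 left out of the fit, the same 8 genes were called in OFF against WT: Hspa5, Sdf2l1, Calr, Pdia4, Pdia6, P4hb, Ern1 and Atf6. Calls over all genes also rose in those fits, from 6.83% to 9.18% and 9.08%. Without OFF 1, 4 were called, with 4.72% of all genes.

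The comparison of OFF with ON, of equal genotype and gate, asks what withdrawal of Notch responsiveness in the last week changed. Of the 32 tested genes edgeR called 0, and DESeq2 and limma-voom 0 each, where edgeR called 1.03% of all genes, 0.602% higher and 0.425% lower. At an unadjusted p under 0.05, 1 was higher and 3 were lower, against 19.1% of all genes (9.11% higher and 9.96% lower). The median log2 fold change was -0.04, and 13 of 32 were above 0, against 50.1% of all genes. The lower ones were Canx (-0.36 ± 0.13; adjusted p = 0.175), Pdia4 (-0.47 ± 0.18; 0.209) and Ddit3 (-0.36 ± 0.14; 0.205), and the higher one was Dnajb9 (0.40 ± 0.15; 0.202). Both OFF libraries lay below both of ON for 8 genes, namely Calr, Canx, Pdia4, P4hb, Eif2ak3, Atf4, Ddit3 and Sec61b, and above for 5, Dnajb9, Ern1, Herpud1, Sel1l and Derl1. Over all genes 46.7% did not overlap, 23.3% below and 23.4% above. Without ON 1, Calr (-0.68, adjusted p = 0.0182) and Pdia4 (-0.75, 0.0128) were called lower in OFF, in a fit that called 3.55% of all genes. Without ON 2 they were at -0.03 (0.914) and -0.12 (0.657), so a difference of these genes between ON and OFF rested on ON 2. Calr, Canx, Pdia4, P4hb, Ddit3, Dnajb11 and Sdf2l1 were called in ON and not in OFF. These calls are therefore not differences between ON and OFF that passed this test. ON 2 also had the highest share of reads assigned to genes (46.9%) and the lowest share unaligned (9.34%). The part of these shares in its levels was not tested.

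**Figure D5:**
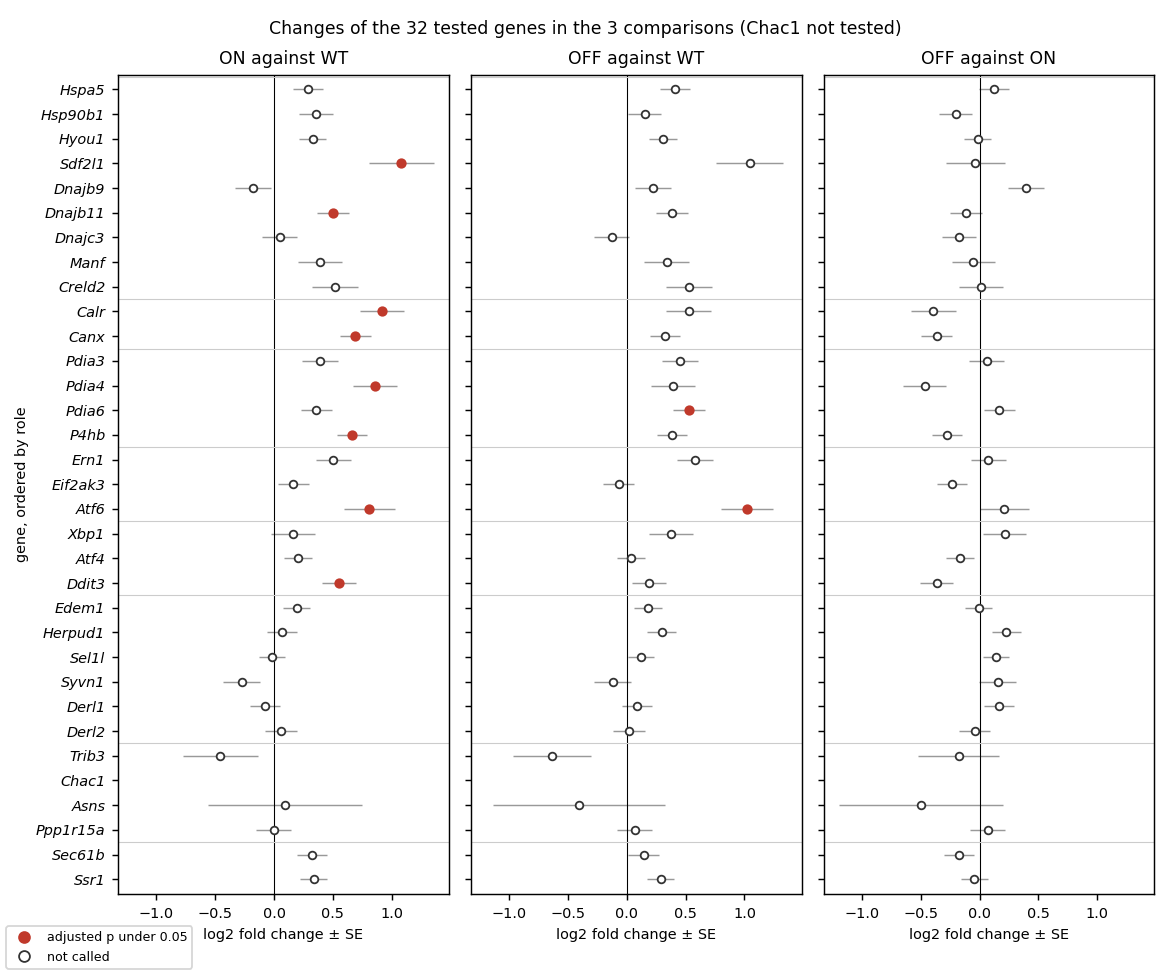
Log2 fold change ± SE of the 32 tested genes in the 3 comparisons, ordered by role; red points were called at an adjusted p under 0.05 and open points were not. Red points number 8 in ON against WT, 2 in OFF against WT and 0 in OFF against ON.

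Some of the genes with an ERSE in the printed stretches were called in ON and others were not. Calr, Canx, Creld2, Pdia6, Hsp90b1 and Hspa5 were higher in both ON libraries than in WT, with an unadjusted p under 0.05 by edgeR. Of all genes 29.8% were higher in both libraries, and 17.1% were higher at such a p. Whether the genes with an ERSE moved together was not tested. In ON against WT, Calr and Canx rose by 0.92 and 0.69 on the log2 scale, Creld2, Pdia6, Hsp90b1 and Hspa5 were at 0.52, 0.36, 0.36 and 0.29 and not called, and Dnajc3 and Syvn1 stood at 0.05 and -0.28. Pdia4, P4hb, Sdf2l1 and Ddit3, which were called, had a window without an exact ERSE or ERSE-II, while Dnajb11, with an ERSE-II, was called (1.41-fold, adjusted p = 0.0396 by edgeR). Herpud1, with an ERSE-II and a C/EBP-ATF element, was at 40.9 and 39.3 CPM in WT, at 39.4 and 44.6 in ON, and at 49.6 and 48.9 in OFF. Its OFF libraries lay above the other 4 (0.30 ± 0.12 against WT, adjusted p = 0.199).

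A further 5 lists of the same pathways held 123 genes of the table, of which 117 were tested. In ON against WT 12 were called higher and 5 lower by edgeR, 17 of 117 in all, where 14.8% of all genes were called (9.68% higher and 5.16% lower), so these lists were called about as often as all genes. Their median log2 fold change was 0.18, against -0.02 over all genes, and the genes below are named as a description. Folding and disulfide enzymes had 4 higher and 2 lower of 25. The glucosidase II subunit gene Prkcsh (1.61-fold, adjusted p = 0.0165 by edgeR) and Erp29 (1.56-fold) rose. The prolyl isomerase genes Ppib (1.43-fold) and Fkbp2 (1.96-fold) rose as well. Txndc11 and Dnajb14 fell by 0.46 and 0.61 on the log2 scale. Uggt1, the folding sensor of the lectin cycle and the most abundant of the list, was at a mean of 219.9 CPM in WT and 205 in ON (adjusted p = 0.674). Among 25 translocon and glycosylation genes, the signal peptidase gene Sec11c rose 1.69-fold (adjusted p = 0.00320), from 52.7 and 53.3 CPM in WT to 91.4 and 87.6 in ON, with 61.1 and 62.3 in OFF; Stt3b, the most abundant, was at 168 and 147 CPM on average in WT and ON (adjusted p = 0.372). Among 20 degradation genes, Os9 (1.54-fold) and Selenok (1.39-fold) rose and Herpud2 and Edem3 fell by 0.60 and 0.50, while Vcp, the most abundant, was at 176 and 229.9 CPM (adjusted p = 0.0600).

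The eIF2 kinase and ATF4 list had 5 higher and 1 lower of 32, near the 14.8% of all genes called. The risers were the alanyl-tRNA synthetase gene Aars (1.66-fold, adjusted p = 0.00576 by edgeR), the mitochondrial folate enzyme genes Mthfd2 and Shmt2 (1.61-fold and 1.46-fold), the serine synthesis gene Phgdh (1.61-fold) and the proline synthesis gene Aldh18a1 (1.45-fold). Nfe2l2, which encodes the oxidative stress factor NRF2, fell by 0.66 (adjusted p = 0.00785). Beside them, Asns had 10 and 6 counts for WT, 11 and 9 for ON and 3 and 9 for OFF, and Ppp1r15b, the most abundant of the list, was at a mean of 136 CPM in WT and 134 in ON. Of the 15 tested genes of the ATF6 and IRE1 list, edgeR called 0 in ON against WT (3 higher and 0 lower at an unadjusted p under 0.05); its most abundant gene, Tmbim6, averaged 131 CPM for WT, 144.5 for ON and 155 for OFF. Over the 5 lists edgeR called 0 of 117 between OFF and WT (0 by DESeq2 and 0 by limma-voom; unadjusted p under 0.05 for 16 higher and 2 lower), where 6.83% of all genes were called and 12.4% and 9.7% had such a p, and 0 between OFF and ON (7 higher and 12 lower at that p; 2 lower by DESeq2 and 0 by limma-voom), where 1.03% were called and 9.11% and 9.96% had such a p.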

How the data were processed

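Raw counts per gene in 6 libraries were read from the deposited table, which the authors made from reads aligned to GRCm38, per the labels. The submitters' processing notes list edgeR and R 3.6.2. Aligner, counter, strand use and annotation release were not given in the sources used here. Left out were the 5 summary rows at its foot. Identifiers were matched to GENCODE mouse release M21 (47310 of 47729). Genes were kept by filterByExpr (minimum count 10, minimum total 15), scaled by TMM and fitted with edgeR's robust quasi-likelihood test, all 6 libraries in 1 fit with 3 residual degrees of freedom and Benjamini-Hochberg adjustment over 15780 genes. Versions used were R 4.3.3, limma 3.58.1, DESeq2 1.42.0 and edgeR 4.0.16. The steps were also run on simulated counts with planted changes larger than most of those called here. That run does not show how well changes of the size called here are found.

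The 33 genes and the lists were chosen with earlier results of these data known. The quasi-likelihood method was also settled late: edgeR's older method was run first, and the current one was taken as the main test after the 33 genes' results under the older one had been seen, because it gave the 162 calls between OFF and ON over all genes that an earlier account of these data had. The older method is kept as an alternative. It called 8 genes in ON against WT, 0 between OFF and ON, and 3 rather than 2 in OFF against WT, Ern1 being the third.

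The rule for names took all 33 genes, up to 3 called genes of smallest p per further list with its most abundant gene, Rbpj and set markers. Fkbp2, Txndc11, Dnajb14, Edem3, Phgdh, Shmt2 and Aldh18a1 lie outside it and were named after their values were seen, as were Prdm1 and Tnfrsf17. Replicates differed by more than counting noise (chi-square per degree of freedom 9.50 in WT, 65.9 in ON, 17.8 in OFF). Exons of 11 of the 33 genes overlap another gene, for 10 of them on the opposite strand, so their counts may hold its reads. Of the symbols listed, 5 had no row. Alternatives were other tools, scalings, filters and thresholds, each library left out in turn, a replicate block and, chosen after seeing the data, the older method and a crossed block.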

Additional observations from a re-analysis of the deposited data

How the results depend on the processing

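No call among the 33 genes reversed its direction under any alternative run. With 1 library left out, calls among these genes were lost in some fits and gained in others, and the share of all genes called moved as well. The 8 genes called in ON against WT stayed above 0 in those fits. Their log2 fold changes ran from 0.48 at the least (Ddit3) to 1.23 at the most (Calr). In OFF against WT, Atf6 ran from 0.74 to 1.29 and Pdia6 from 0.40 to 0.67. A stricter threshold of 0.01 left 1 call in ON and 0 in OFF against WT, where 4.8% and 1.89% of all genes were called. At 0.10 there were 12 in ON and 5 in OFF, where 22.4% and 11.5% of all genes were called. In OFF against WT, 2 calls became 0 with limma-voom (3.62% of all genes called), 1 with RLE scaling (6.4%) and 1 with upper quartile scaling (6.34%). There was 1 when genes needed a mean CPM of 1 (5.64%) and 4 without the low count filter (2.24%). The main fit called 6.83% of all genes, and the cause of these shifts was not tested. Deviations of libraries with the same replicate number had correlations over genes of -0.20 for OFF with ON, 0.08 for ON with WT and -0.21 for OFF with WT. With 2 libraries per group these values cannot decide whether replicate numbers pair the libraries. A replicate block gave 0 calls for OFF against ON, 4 for ON against WT (Calr, Canx, Pdia4 and P4hb) and 0 for OFF against WT. Calls over all genes fell in that fit as well, to 0.38%, 9.13% and 4.2%. A crossed replicate block, with the OFF numbers exchanged and chosen after seeing the data, gave 0, 14 and 7, with calls over all genes up as well, to 7.67%, 23.8% and 13.2%. The ranges over genes with few counts are wide: Asns between OFF and ON ran from -1.52 to 0.11 on the log2 scale. Summed CPM of the 33 genes moved by less than 1 SD without TMM scaling, to 2616 in WT, 3701 in ON and 3131 in OFF.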
